A study of Homo sapiens with 30 samples.

Results

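Glutamine, arginine and the carriers that bring amino acids into the cell were followed through 9 genes in lung epithelial and endothelial cells after exposure to soot-based aerosols. The 9 genes were chosen by symbol: GLUL, SLC38A2, SLC1A5, SLC1A4, SLC7A5, SLC3A2, SLC7A2, ASS1 and ARG2, and all 9 were found among the 18460 genes counted in each cell line. RNA-Seq libraries came from an air-liquid interface coculture with A549 cells, a human lung adenocarcinoma line, on the upper side of an insert and EA.hy926 cells beneath it, an endothelial line that arose from the fusion of umbilical vein cells with a derivative of A549. Only the A549 cells faced the aerosol. Cocultures were exposed for 4 h to clean air (CA), to fresh soot particles (SP), or to soot with secondary organic aerosol aged from β-pinene (SOAβPIN-SP) or naphthalene (SOANAP-SP), and the labels give 1 mg/ml of soot and 4 mg/ml of each precursor where the study's methods give the same figures per cubic metre of air. The study calculated that, at the dilution used, the least mass deposited with SP, more with SOAβPIN-SP and the most with SOANAP-SP. Deposited mass and aerosol type therefore cannot be told apart where aerosols are compared. In each line there were 4 CA, 3 SP, 4 SOAβPIN-SP and 4 SOANAP-SP libraries, 30 in all, and both lines were single established cell lines, so that replicates are cultures and not donors.

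Glutamine is the main nitrogen donor of proliferating cells. Glutamine synthetase, encoded by GLUL, makes it from glutamate and ammonia, and SLC38A2, SLC1A5 and SLC1A4 carry it or other small neutral amino acids across the plasma membrane with sodium. SLC7A5 and SLC3A2 form the light and heavy chain of an exchanger that brings in leucine and other large neutral amino acids in return for glutamine. SLC7A2 carries the cationic amino acids arginine, lysine and ornithine, ASS1 catalyses a step of arginine synthesis from citrulline and aspartate, and ARG2 is the mitochondrial arginase that splits arginine into ornithine and urea. In lung and endothelium arginine is also the substrate of nitric oxide synthases. Several of these genes, among them SLC7A5, SLC38A2 and SLC1A4, are known targets of the transcription factor ATF4 when amino acids are scarce.

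Counted reads per library ranged from 7317041 to 15012539 in A549 and from 10003314 to 16610686 in EA.hy926 cells. A gene was tested in a line where 3 or more libraries held a count of 30 or above, which left 11775 genes in A549 and 10709 in EA.hy926 cells. Levels are CPM, a count relative to the scaled (TMM) total of its library, which sets libraries level on the bulk of their genes. The term differentially expressed gene (DEG) is used where the adjusted p of the edgeR test was at most 0.05 and the log2 fold change reached 0.5 in either direction. All 9 genes passed the count filter in both lines, so none was too low to test. The lowest were ARG2 in A549 cells, with counts of 14 to 51, and SLC1A4 in EA.hy926 cells, with counts of 17 to 54. Under the minimum of 30 CPM in the study's methods, SLC7A2 and ARG2 in A549 cells and SLC1A4 and ARG2 in EA.hy926 cells would not have been tested. The endothelial markers stood at a summed 3672 to 5093 CPM in EA.hy926 and 85.1 to 139 CPM in A549 cells, and the epithelial markers at 13848 to 18778 CPM in A549 and 1570 to 2116 CPM in EA.hy926 cells, where CDH1, EPCAM, KRT19 and ESRP1 were at or below 0.59 CPM and the keratins KRT7, KRT8 and KRT18 remained. VWF and CLDN5, which define endothelium, were also near 0 in EA.hy926 cells, at no more than 2.48 and 0.59 CPM. One A549 library, CA replicate 2, held 15.7 CPM of the endothelial gene ENG against at most 0.607 CPM in the other A549 libraries. That is 0.728% of the median ENG level in EA.hy926 cells, and results of the 9 genes that change without this library are given both ways.

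Each library name holds a number after the letter e, shared by both lines of a coculture, which the labels do not explain and which is read here as the exposure run. On that reading, none of the runs combined different aerosols. Aerosol and run therefore cannot be told apart where aerosols are compared. CA shared a run with SP in 53, with SOAβPIN-SP in 38 and with SOANAP-SP in 42. Most exposed libraries thus had no CA library of their run, so run and exposure are also partly mixed in the comparisons with CA. The study corrected for sequencing batch, which the labels do not name, so no such correction was made here. The replicates of a group carry different run numbers, but nothing in the labels says more of how separate they were.

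Sequence just before the start of transcription is shown for 5 of the genes, taken from RefSeq on GRCh38.p14, because the results below turn on them: GLUL and SLC38A2, which rose in both lines, SLC1A4, which fell in both lines, SLC7A5, which fell in A549 cells with SOANAP-SP, and ARG2, which differed between the aerosols. The count filter partly fixed the direction for SLC1A4 in EA.hy926 cells and for ARG2 in A549 cells, as described below. Motifs were searched on both strands in a window from 250 bases before to 50 bases after each start: the C/EBP-ATF element (TGATGNAAN), present in 3.61% of all 35116 windows, the E-box (CACGTG, 7.26%), the cAMP response element (TGACGTCA, 1.85%) and the core of the antioxidant response element (TGACNNNGC, 13.3%). Motif matches are in capitals. GLUL is read from chr1:182391791-182391890 and SLC38A2 from chr12:46372774-46372873, both on the minus strand, with no match in either whole window. The SLC1A4 stretch, chr2:64989381-64989410 on the plus strand, runs across the start and holds the C/EBP-ATF element in reverse. The SLC7A5 stretch, chr16:87869620-87869649 on the minus strand, holds an E-box 130 bases before the start, and its window also held the antioxidant core across the start. The ARG2 stretch, chr14:67619740-67619871 on the plus strand, holds the cAMP response element at 172 and again at 64 bases before the start. Among the genes whose sequence is not shown, the C/EBP-ATF element occurred at other starts of SLC3A2 and SLC1A5, no DEGs against CA. An E-box occurred before the start of ASS1, which rose in A549 cells with SOANAP-SP, and at another start of SLC1A5. The antioxidant core occurred at other starts of SLC3A2 and SLC1A5. The part of these motifs in the results was not tested.
GLUL: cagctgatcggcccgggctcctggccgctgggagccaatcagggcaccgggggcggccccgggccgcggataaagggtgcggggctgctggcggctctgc
SLC38A2: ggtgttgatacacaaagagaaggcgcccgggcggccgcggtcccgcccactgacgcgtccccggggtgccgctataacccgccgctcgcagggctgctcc
SLC1A4: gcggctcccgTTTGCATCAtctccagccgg
SLC7A5: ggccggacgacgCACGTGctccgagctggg
ARG2: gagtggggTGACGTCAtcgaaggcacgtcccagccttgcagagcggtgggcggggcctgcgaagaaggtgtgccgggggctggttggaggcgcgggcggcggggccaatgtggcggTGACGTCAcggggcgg

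To see how each aerosol affected these genes, every exposure was compared with CA within a cell line. GLUL and SLC38A2 rose with all 3 aerosols in both lines. SLC1A4 fell with all 3 aerosols in A549 cells and with SP and SOAβPIN-SP in EA.hy926 cells. In A549 cells SLC7A2 also rose with all 3 aerosols, SLC7A5 fell with SOANAP-SP, ASS1 rose with SOANAP-SP and ARG2 fell with SOAβPIN-SP, whereas in EA.hy926 cells ARG2 rose with SOANAP-SP. SLC1A5 and SLC3A2 were no DEG in any comparison with CA. For SLC1A4 in EA.hy926 cells and ARG2 in A549 cells the direction is partly fixed by the count filter, as described below. A level here is a share of the RNA of a whole culture, so that a change within cells and a change in which cells contributed RNA cannot be told apart here.

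With SP, 4 of the 9 genes were DEGs in A549 cells (3 higher and 1 lower, where 5.99% of all tested genes were DEGs), 5 with SOAβPIN-SP (3 higher and 2 lower, against 13.2%) and 6 with SOANAP-SP (4 higher and 2 lower, against 18.2%). Their median log2 fold change was -0.09, -0.19 and 0.17, beside 0.00, 0.01 and 0.00 over all genes. In EA.hy926 cells, 3 of the 9 genes were DEGs with each aerosol, 2 higher and 1 lower with SP (against 9.83% of all genes) and with SOAβPIN-SP (11.2%), and 3 higher with SOANAP-SP (14.8%). Median log2 fold changes were 0.00, 0.05 and 0.13, beside -0.02, -0.01 and 0.00 over all genes. Without A549 SP replicate 1 the count with SP was 2, and without A549 SOAβPIN-SP replicate 1 or replicate 2 the count with SOAβPIN-SP was 3. Without A549 CA replicate 2, the library with endothelial transcripts, the counts in A549 cells were 3, 5 and 6. The share of counts from mitochondrial ribosomal RNA also differed between groups of A549 libraries, at 6.67 to 9.76% in CA, 5.45 to 7.14% with SP, 5.53 to 7.33% with SOAβPIN-SP and 8.85 to 12.6% with SOANAP-SP, and its part in these results was not tested. The 3 comparisons of a line share the same CA libraries. The 9 genes were chosen with earlier results of these data known, so their counts beside the share of all genes are a description and no test.

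**Figure D1:**
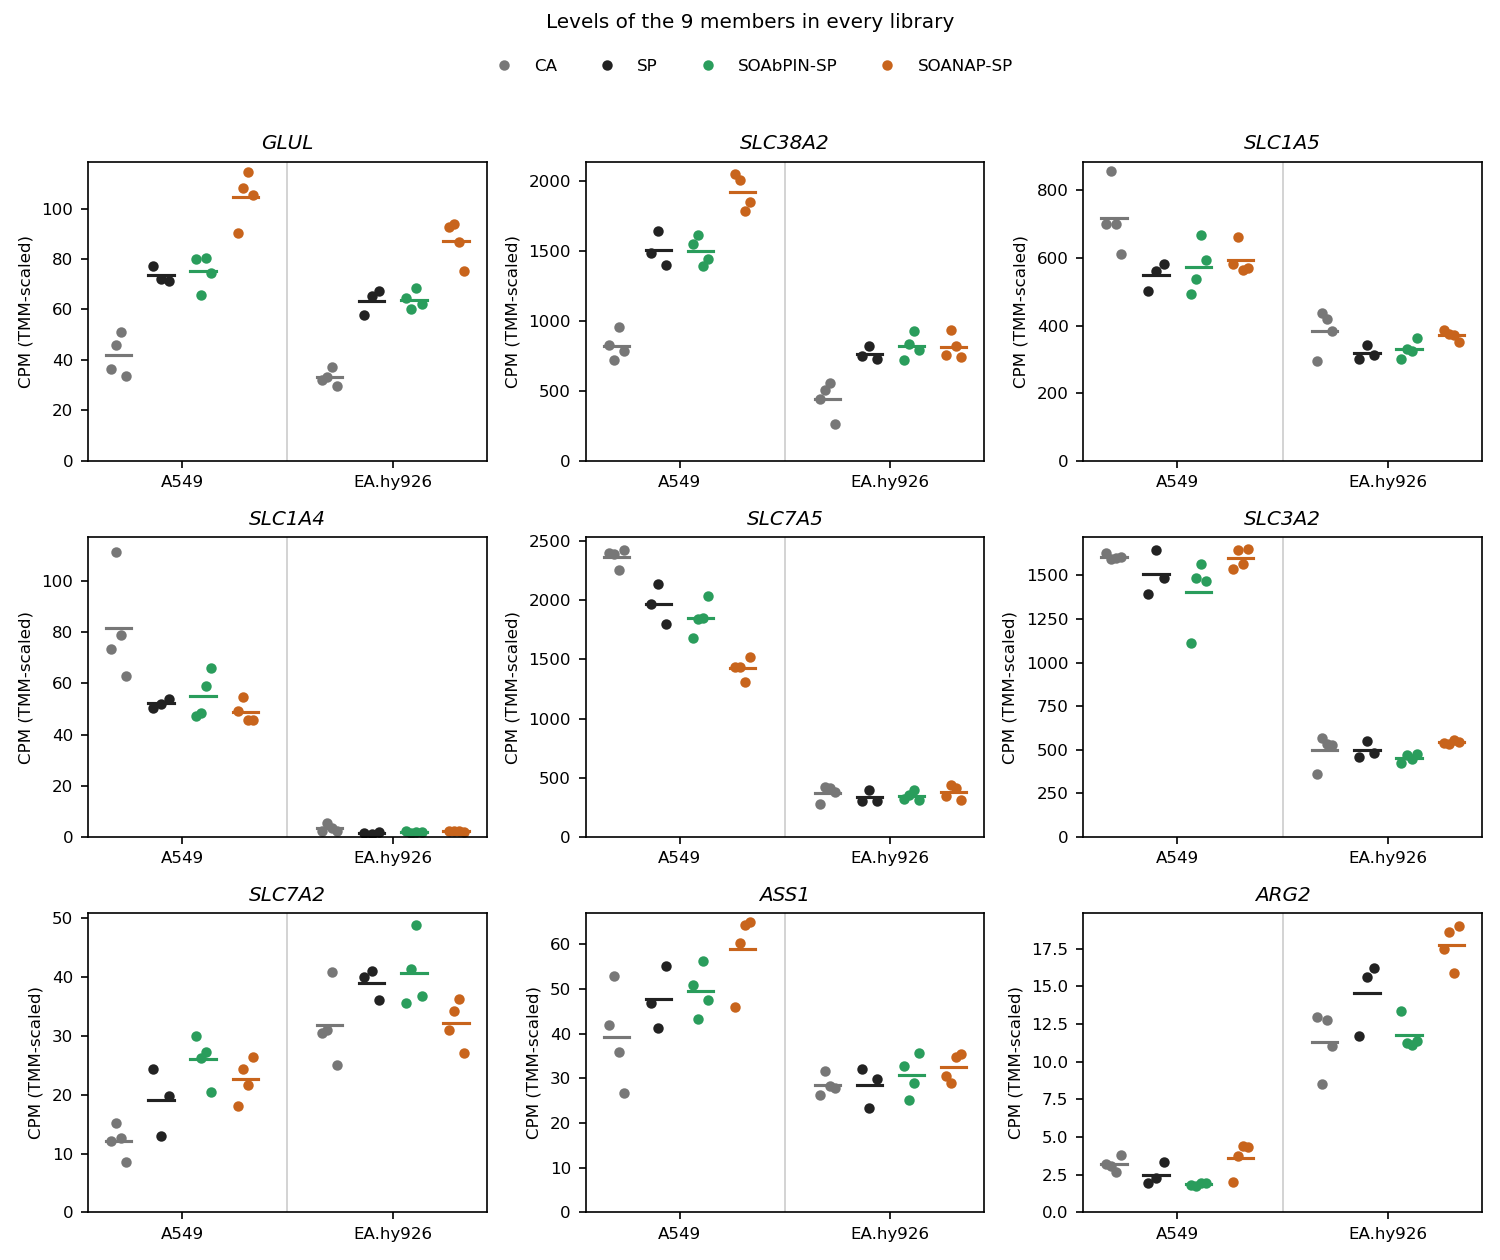
Level of each of the 9 genes in every library, as TMM-scaled CPM on an axis from 0, with A549 on the left and EA.hy926 on the right of each panel; points are libraries, horizontal lines are group means, and SOAbPIN-SP in the legend is SOAβPIN-SP. GLUL and SLC38A2 lay above every CA library of their line with all 3 aerosols, and SLC1A4 was at 1.18 to 5.16 CPM in EA.hy926 against 45.5 to 112 CPM in A549 cells.

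GLUL (ENSG00000135821, chr1:182378098-182392206 on GRCh38), the gene of glutamine synthetase, was at 36.5, 46, 51.0 and 33.7 CPM in the CA libraries of A549 cells. It stood at 77.4, 72.0 and 71.3 CPM with SP, at 79.8, 65.7, 80.5 and 74.3 CPM with SOAβPIN-SP and at 90.5, 108, 114 and 105 CPM with SOANAP-SP. Every exposed library lay above every CA library, and the SOANAP-SP libraries lay above all others. The rise was 1.76-fold with SP (log2 fold change 0.82, SE 0.12, adjusted p = 0.000499), 1.80-fold with SOAβPIN-SP (0.85, SE 0.11, adjusted p = 2.30e-05) and 2.51-fold with SOANAP-SP (1.33, SE 0.11, adjusted p = 1.71e-07).

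In EA.hy926 cells, which had no direct contact with the aerosol, GLUL was at 32.2, 33.3, 37.1 and 29.7 CPM in CA. It reached 57.9, 65.3 and 67.2 CPM with SP, 64.6, 60.2, 68.6 and 62.0 CPM with SOAβPIN-SP and 92.9, 94.0, 86.6 and 75.4 CPM with SOANAP-SP. The same separation was seen as in A549 cells, with CA lowest, SP and SOAβPIN-SP overlapping each other and SOANAP-SP highest. The rise was 1.92-fold (log2 0.94, SE 0.10, adjusted p = 3.13e-06), 1.93-fold (0.95, SE 0.09, adjusted p = 8.23e-07) and 2.64-fold (1.40, SE 0.09, adjusted p = 4.02e-09), respectively. Within the runs that CA shared with an aerosol, GLUL was higher by 1.09, 0.689 and 0.826 log2 units in A549 and by 1.13, 0.891 and 1.32 in EA.hy926 cells for SP, SOAβPIN-SP and SOANAP-SP.

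SLC38A2 (ENSG00000134294, chr12:46358188-46372773), a sodium-coupled carrier of glutamine, alanine and other small neutral amino acids, was at 828, 724, 958 and 783 CPM in the CA libraries of A549 cells. It rose to 1490, 1641 and 1402 CPM with SP, to 1553, 1613, 1396 and 1442 CPM with SOAβPIN-SP and to 2051, 2006, 1785 and 1855 CPM with SOANAP-SP. No exposed library overlapped CA, and SOANAP-SP lay above SP and SOAβPIN-SP. These were rises of 1.84-fold (log2 0.88, SE 0.09, adjusted p = 3.01e-05), 1.82-fold (0.87, SE 0.09, adjusted p = 1.26e-06) and 2.34-fold (1.23, SE 0.09, adjusted p = 1.53e-08).

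The SLC38A2 level of EA.hy926 cells was 440, 509, 557 and 260 CPM in CA, 748, 820 and 731 CPM with SP, 722, 833, 927 and 792 CPM with SOAβPIN-SP and 759, 934, 821 and 744 CPM with SOANAP-SP. All exposed libraries exceeded all CA libraries, and the aerosols overlapped one another. The rise was 1.74-fold with SP (log2 0.80, SE 0.18, adjusted p = 0.00734), 1.86-fold with SOAβPIN-SP (0.89, SE 0.17, adjusted p = 0.0018) and 1.85-fold with SOANAP-SP (0.88, SE 0.17, adjusted p = 0.00131). One library, CA replicate 4, was lower than the other controls, and without it the log2 fold changes were 0.61, 0.71 and 0.70, with adjusted p of 0.000395, 4.10e-05 and 2.18e-05. This library is the CA library of run 53, so the within-run difference of SP, 1.66 log2 units, rests on it. The within-run differences of SOAβPIN-SP and SOANAP-SP in EA.hy926 cells were 0.639 and 0.446, and those of A549 cells were 1.07, 0.995 and 1.10 for SP, SOAβPIN-SP and SOANAP-SP.

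SLC1A5 (ENSG00000105281, chr19:46774883-46788594), a carrier that exchanges glutamine for other neutral amino acids and is a main glutamine entry route of many cancer cells, was at 700, 857, 701 and 613 CPM in CA in A549 cells. It was at 502, 560 and 584 CPM with SP, all below CA, at 493, 538, 668 and 594 CPM with SOAβPIN-SP and at 582, 662, 565 and 571 CPM with SOANAP-SP, both overlapping CA. The log2 fold changes of -0.39 (SE 0.11, adjusted p = 0.0303), -0.32 (SE 0.10, adjusted p = 0.0246) and -0.27 (SE 0.10, adjusted p = 0.0448) passed the p threshold and not the fold threshold. In EA.hy926 cells it was at 294, 438, 420 and 384 CPM in CA and between 300 and 387 CPM in the exposed libraries, with log2 fold changes of -0.26, -0.22 and -0.05 that did not pass the test (adjusted p = 0.0789, 0.108 and 0.739).

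SLC1A4 (ENSG00000115902, chr2:64988477-65023865), a carrier of serine, alanine, cysteine and threonine related to SLC1A5, moved the other way from SLC38A2. In A549 cells it was at 73.4, 112, 78.9 and 62.9 CPM in CA, 50.4, 52 and 54.1 CPM with SP, 47.4, 48.4, 59.0 and 66.2 CPM with SOAβPIN-SP and 49.3, 54.7, 45.5 and 45.6 CPM with SOANAP-SP. The SP and SOANAP-SP libraries lay below every CA library, while 1 SOAβPIN-SP library overlapped CA. The fall was 1.57-fold with SP (log2 -0.65, SE 0.16, adjusted p = 0.0135), 1.48-fold with SOAβPIN-SP (-0.56, SE 0.14, adjusted p = 0.00732) and 1.67-fold with SOANAP-SP (-0.74, SE 0.14, adjusted p = 0.000701). CA replicate 2 was the highest library, and without it the log2 fold changes were -0.46 with SP (adjusted p = 0.0256), -0.37 with SOAβPIN-SP (0.0228) and -0.55 with SOANAP-SP (0.00122), so that only the last stayed a DEG. Without SP replicate 1 the value with SP was -0.62 (adjusted p = 0.0641), and without SOAβPIN-SP replicate 1 or replicate 2 the value with SOAβPIN-SP was -0.50, just under the fold threshold. CA replicate 2 is also the library with endothelial transcripts, and EA.hy926 cells held less SLC1A4 than A549 cells, as the next values show.

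SLC1A4 was close to the count limit in EA.hy926 cells, at 2.12, 5.16, 3.35 and 2.21 CPM in CA (counts of 26 to 54). It was at 1.53, 1.18 and 1.67 CPM with SP, at 2.15, 1.57, 1.68 and 1.65 CPM with SOAβPIN-SP and at 2.15, 2.06, 2.22 and 1.92 CPM with SOANAP-SP (counts of 17 to 30 in exposed libraries). Only SP lay below every CA library. The gene passed the count filter through 3 CA libraries and 1 SOANAP-SP library, so its lower values in exposed cells are partly fixed by that filter. The log2 fold changes were -1.13 with SP (SE 0.29, adjusted p = 0.00882), -0.84 with SOAβPIN-SP (SE 0.26, adjusted p = 0.0262) and -0.59 with SOANAP-SP (SE 0.25, adjusted p = 0.0851). With SP the value was -0.97 without SP replicate 2 (adjusted p = 0.0618). With SOAβPIN-SP the adjusted p rose to 0.119 without CA replicate 2, where the log2 fold change was -0.52, and to 0.0729, 0.0605 and 0.0603 without SOAβPIN-SP replicate 2, 3 and 4. The call was also lost with the run number as a random block (-0.72, adjusted p = 0.0517) and with only the compared groups in the fit (-0.84, adjusted p = 0.07). Without CA replicate 1 or replicate 4 the gene became a DEG with SOANAP-SP (-0.75, adjusted p = 0.0311, and -0.72, adjusted p = 0.0377). Within shared runs the log2 difference of SLC1A4 from CA was -0.272, -0.753 and -0.676 in A549 and -0.813, -1.56 and -0.601 in EA.hy926 cells for SP, SOAβPIN-SP and SOANAP-SP.

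**Figure D2:**
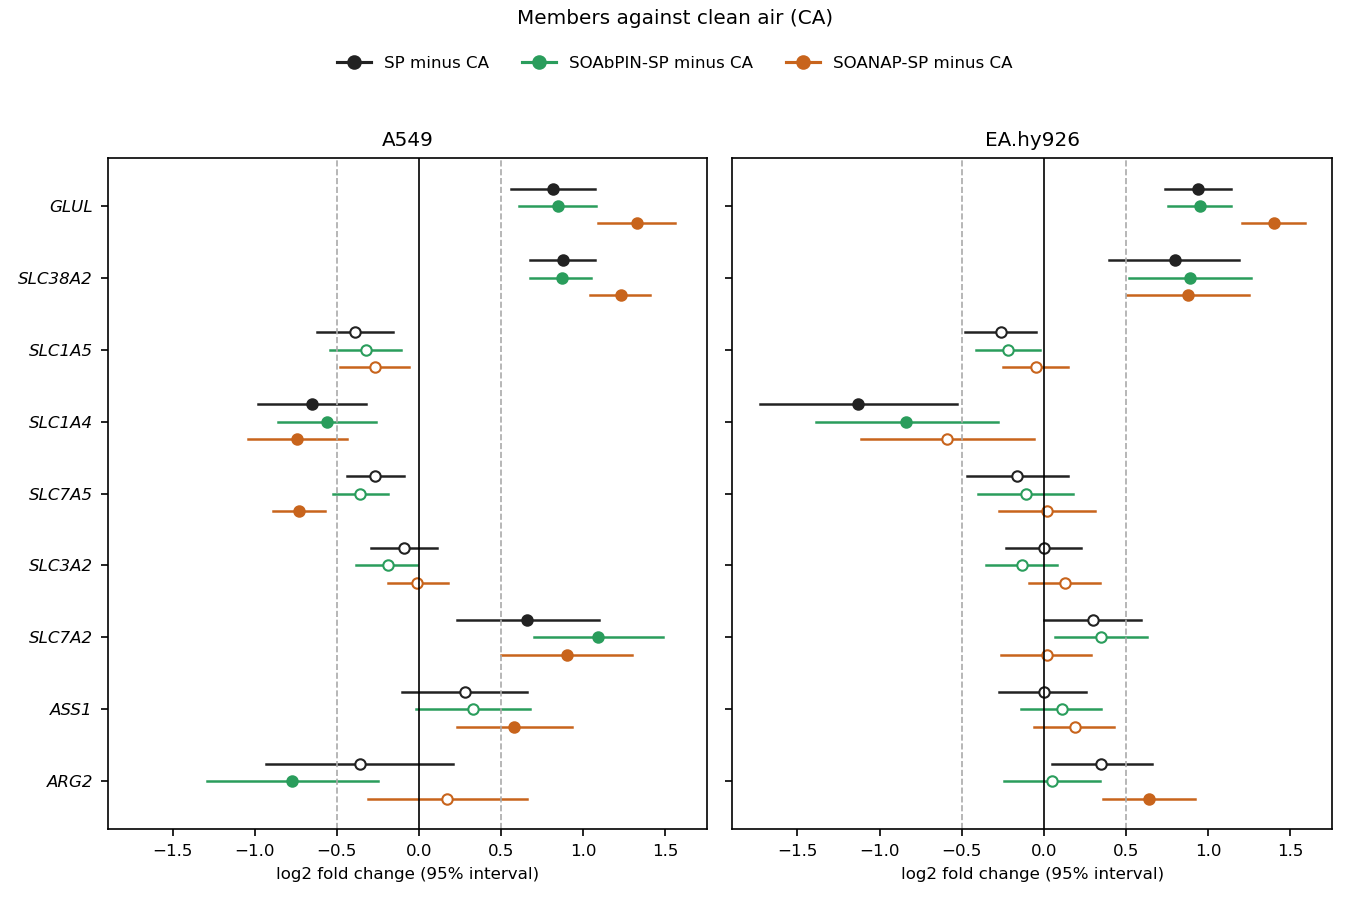
Log2 fold change of each gene against CA for the 3 aerosols in A549 (left) and EA.hy926 cells (right), with 95% intervals from the edgeR fit; filled points are DEGs, open points are not, and dashed lines mark the fold threshold of 0.5. GLUL and SLC38A2 lie to the right in both lines, SLC1A4 lies to the left, and SLC3A2 lies near 0. The SLC1A4 values in EA.hy926 cells are partly fixed by the count filter.

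SLC7A5 and its partner SLC3A2 did not move together in A549 cells. SLC7A5 (ENSG00000103257, chr16:87830023-87869507), the light chain that carries the substrate, was at 2401, 2397, 2254 and 2426 CPM in CA, 1967, 2138 and 1799 CPM with SP, 1679, 1840, 1847 and 2039 CPM with SOAβPIN-SP and 1437, 1440, 1310 and 1521 CPM with SOANAP-SP. Every exposed library lay below every CA library, and SOANAP-SP lay lowest. The fall was 1.66-fold with SOANAP-SP (log2 -0.73, SE 0.08, adjusted p = 1.50e-06). With SP (-0.27, SE 0.08, adjusted p = 0.0469) and SOAβPIN-SP (-0.36, SE 0.08, adjusted p = 0.00212) the gene passed the p threshold alone. Within shared runs its differences from CA were -0.182, -0.234 and -0.649 for SP, SOAβPIN-SP and SOANAP-SP. SLC3A2 (ENSG00000168003, chr11:62856004-62888880), the heavy chain shared with other light chains, was at 1593 to 1630 CPM in CA, 1393 to 1648 CPM with SP, 1114 to 1563 CPM with SOAβPIN-SP and 1535 to 1654 CPM with SOANAP-SP, with log2 fold changes of -0.09, -0.19 and -0.01 (adjusted p = 0.618, 0.124 and 0.971). The SOAβPIN-SP libraries lay below CA and the other groups overlapped it. The 95% interval of the SOANAP-SP value, -0.19 to 0.18, lay within the fold threshold on both sides.

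In EA.hy926 cells SLC7A5 was at 273, 424, 409 and 381 CPM in CA and between 300 and 433 CPM in exposed libraries, with log2 fold changes of -0.16, -0.11 and 0.02 for SP, SOAβPIN-SP and SOANAP-SP (adjusted p = 0.502, 0.619 and 0.935). SLC3A2 was at 362, 567, 532 and 523 CPM in CA and between 422 and 556 CPM in exposed libraries, with log2 fold changes of 0.00, -0.13 and 0.13 (adjusted p = 0.993, 0.38 and 0.379). Every exposure overlapped CA for both genes. CA replicate 1 was the lowest CA library for both, and also for SLC1A5.

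SLC7A2 (ENSG00000003989, chr8:17497088-17570573), the carrier of arginine and other cationic amino acids, was at 12.2, 15.1, 12.7 and 8.63 CPM in CA in A549 cells. It was at 24.4, 13.0 and 19.8 CPM with SP, 29.99, 26.3, 27.3 and 20.4 CPM with SOAβPIN-SP and 18.1, 24.4, 21.6 and 26.5 CPM with SOANAP-SP. All libraries with SOAβPIN-SP or SOANAP-SP exceeded CA, and 1 SP library overlapped it. The rise was 2.13-fold with SOAβPIN-SP (log2 1.09, SE 0.19, adjusted p = 0.000383) and 1.87-fold with SOANAP-SP (0.90, SE 0.19, adjusted p = 0.00146). With SP it was 1.58-fold (0.66, SE 0.21, adjusted p = 0.0498), at the edge of the threshold. That value lost the call in 6 of 9 other analyses, with adjusted p of 0.0529 to 0.112 in those 6, and when any of 12 of the 15 A549 libraries was left out, with log2 fold changes of 0.44 to 0.68 and adjusted p of 0.0511 to 0.29 in those 12. Within shared runs SLC7A2 was higher than CA by 0.577, 0.429 and 0.506 log2 units in A549 cells for SP, SOAβPIN-SP and SOANAP-SP. In EA.hy926 cells SLC7A2 was at 30.6, 31.0, 40.9 and 25.1 CPM in CA, 40, 41.0 and 36.2 CPM with SP, 35.5, 41.4, 48.9 and 36.7 CPM with SOAβPIN-SP and 31.0, 34.2, 36.3 and 27.1 CPM with SOANAP-SP, and the groups overlapped. The log2 fold changes were 0.30 (SE 0.14, adjusted p = 0.154), 0.35 (SE 0.13, adjusted p = 0.061) and 0.02 (SE 0.13, adjusted p = 0.945), and the within-run differences were 0.703, 0.245 and -0.396.

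ASS1 (ENSG00000130707, chr9:130444961-130501274), argininosuccinate synthase, was at 41.9, 52.8, 35.8 and 26.8 CPM in CA in A549 cells, the widest control range, as a ratio, of the 4 genes that rose there with SOANAP-SP. It was at 47.0, 41.2 and 55.1 CPM with SP, 50.9, 43.3, 56.4 and 47.6 CPM with SOAβPIN-SP and 46.1, 60.4, 64.4 and 64.9 CPM with SOANAP-SP, and every exposure overlapped CA. The rise with SOANAP-SP was 1.5-fold (log2 0.58, SE 0.17, adjusted p = 0.0116), and the values with SP and SOAβPIN-SP were 0.28 and 0.33 (adjusted p = 0.365 and 0.158). Without CA replicate 4, the lowest control, the SOANAP-SP value fell below the fold threshold (0.43, adjusted p = 0.0287), and without CA replicate 2, the highest control, it was 0.77 (adjusted p = 0.000804) and ASS1 was also a DEG with SOAβPIN-SP (0.51, adjusted p = 0.0183). With libraries scaled by their totals alone the SOANAP-SP value was 0.48, and the within-run differences for SP, SOAβPIN-SP and SOANAP-SP were 0.617, -0.151 and 0.360. In EA.hy926 cells ASS1 stayed between 23.4 and 35.6 CPM in all 15 libraries, with log2 fold changes of 0.00, 0.11 and 0.19 (adjusted p = 0.986, 0.57 and 0.25). There are 14 annotated ASS1 pseudogenes and 4 of GLUL, and since uniquely mapped reads alone were counted, reads shared with such copies are missing from these levels.

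ARG2 (ENSG00000081181, chr14:67619920-67651708), the mitochondrial arginase, was low in A549 cells, at 3.19, 3.10, 2.66 and 3.79 CPM in CA and 1.95, 2.27 and 3.32 CPM with SP. It was at 1.82, 1.77, 1.93 and 1.97 CPM with SOAβPIN-SP (counts of 14 to 28) and at 2.01, 3.74, 4.38 and 4.34 CPM with SOANAP-SP. The SOAβPIN-SP libraries lay below all others but 1 SP library, with which they overlapped. The fall with SOAβPIN-SP was 1.71-fold (log2 -0.77, SE 0.25, adjusted p = 0.029), and the values with SP and SOANAP-SP were -0.36 and 0.17 (adjusted p = 0.459 and 0.589). Leaving out CA replicate 1 or 4, or SOAβPIN-SP replicate 1, 2 or 3, raised the adjusted p to between 0.0509 and 0.0956, with log2 fold changes of -0.78 to -0.67. The gene passed the count filter there through 3 CA and 3 SOANAP-SP libraries and through none with SOAβPIN-SP, so the low SOAβPIN-SP level is also partly fixed by the filter. In EA.hy926 cells ARG2 was at 12.9, 8.50, 12.8 and 11.03 CPM in CA, 11.7, 15.6 and 16.2 CPM with SP, 13.4, 11.3, 11.1 and 11.3 CPM with SOAβPIN-SP and 17.5, 18.6, 15.9 and 19.0 CPM with SOANAP-SP. Only SOANAP-SP lay above every CA library, a rise of 1.56-fold (0.64, SE 0.14, adjusted p = 0.00121), and the values with SP and SOAβPIN-SP were 0.35 and 0.05 (adjusted p = 0.102 and 0.84). Within shared runs the log2 difference of ARG2 from CA was -0.699, -0.610 and -0.377 in A549 and 0.497, 0.409 and 0.446 in EA.hy926 cells for SP, SOAβPIN-SP and SOANAP-SP, so that in the shared run of SOANAP-SP the A549 value had the other sign from the fit. An exon of ARG2 overlaps VTI1B on the opposite strand. How the counting treated strand is not given in the sources used here, so reads from that overlap cannot be assigned with certainty.

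To learn whether the 3 aerosols differed from one another, they were compared directly. Aerosol type, run and deposited mass cannot be told apart in these comparisons. In A549 cells ARG2 was higher with SOANAP-SP than with SOAβPIN-SP by 1.92-fold (log2 0.94, SE 0.25, adjusted p = 0.0141), the only DEG among the 9 genes where 7.48% of all genes were DEGs. The gene met the count filter through 3 SOANAP-SP and 3 CA libraries and 0 SOAβPIN-SP libraries, so the direction of this difference is partly fixed by the filter. Its within-run differences from CA were -0.377 with SOANAP-SP and -0.610 with SOAβPIN-SP. GLUL (0.48, SE 0.11, adjusted p = 0.00685), SLC38A2 (0.36, SE 0.09, adjusted p = 0.00962) and SLC7A5 (-0.38, SE 0.08, adjusted p = 0.00357) passed the p threshold in this comparison with changes under the fold threshold, and their SOANAP-SP and SOAβPIN-SP libraries did not overlap. Without SOAβPIN-SP replicate 1, SOAβPIN-SP replicate 3 or SOANAP-SP replicate 1, GLUL crossed the fold threshold, with 0.51, 0.52 and 0.55. Between SOANAP-SP and SP, GLUL was the only DEG, higher by 1.42-fold (0.51, SE 0.12, adjusted p = 0.0125), where 7.13% of all genes were DEGs. It sat at the fold threshold and fell to 0.49, 0.48 and 0.48 without SP replicate 2, SP replicate 3 or SOANAP-SP replicate 3, to 0.36 with totals alone as the scale and to 0.49 with the run number as a random block. SLC7A5 (-0.46, SE 0.08, adjusted p = 0.0028) and SLC38A2 (0.35, SE 0.10, adjusted p = 0.0225) passed the p threshold alone, and SLC7A5 reached -0.52 without SP replicate 3 and -0.60 with totals alone.

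SOAβPIN-SP and SP differed in none of the 9 genes in A549 cells, where 0.0679% of all genes were DEGs, and 1 of the 9, SLC7A2, had an unadjusted p under 0.05 in edgeR (log2 0.43, 95% interval 0.01 to 0.85, adjusted p = 0.44), while limma-voom and DESeq2 also gave none. The interval of the difference was -0.23 to 0.28 for GLUL, -0.21 to 0.19 for SLC38A2 and -1.02 to 0.19 for ARG2, so a difference in ARG2 as large as that between SOANAP-SP and SOAβPIN-SP lay within reach of the data.

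In EA.hy926 cells ARG2 was again the only DEG between SOANAP-SP and SOAβPIN-SP, higher by 1.51-fold with SOANAP-SP (log2 0.59, SE 0.14, adjusted p = 0.0426), where 0.598% of all genes were DEGs. The 4 SOANAP-SP libraries, at 15.9 to 19.0 CPM, lay above the 4 SOAβPIN-SP libraries, at 11.1 to 13.4 CPM. In the runs shared with CA, however, ARG2 differed from CA by 0.446 with SOANAP-SP and by 0.409 with SOAβPIN-SP, nearly the same size. When any of 7 libraries was left out (SOAβPIN-SP replicate 2, 3 or 4, SOANAP-SP replicate 1, 2 or 4, or SP replicate 2), the adjusted p lay between 0.0533 and 0.13 with log2 fold changes of 0.55 to 0.60. GLUL was higher with SOANAP-SP than with SOAβPIN-SP by 0.45 (SE 0.09, adjusted p = 0.0158) and than with SP by 0.46 (SE 0.09, adjusted p = 0.0236), both under the fold threshold, and reached 0.51 and 0.52 without SOANAP-SP replicate 4. None of the 9 genes was a DEG between SOANAP-SP and SP, where 0.794% of all genes were, and 2 had an unadjusted p under 0.05 in edgeR, with none called by limma-voom or DESeq2. Between SOAβPIN-SP and SP, 0% of the 10709 genes were DEGs in edgeR, and 355 genes were under 0.05 before adjustment. None of the 9 genes was among the latter, and neither limma-voom nor DESeq2 called any of them. The 95% interval of this difference was -0.19 to 0.21 for GLUL and -0.30 to 0.49 for SLC38A2.

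**Figure D3:**
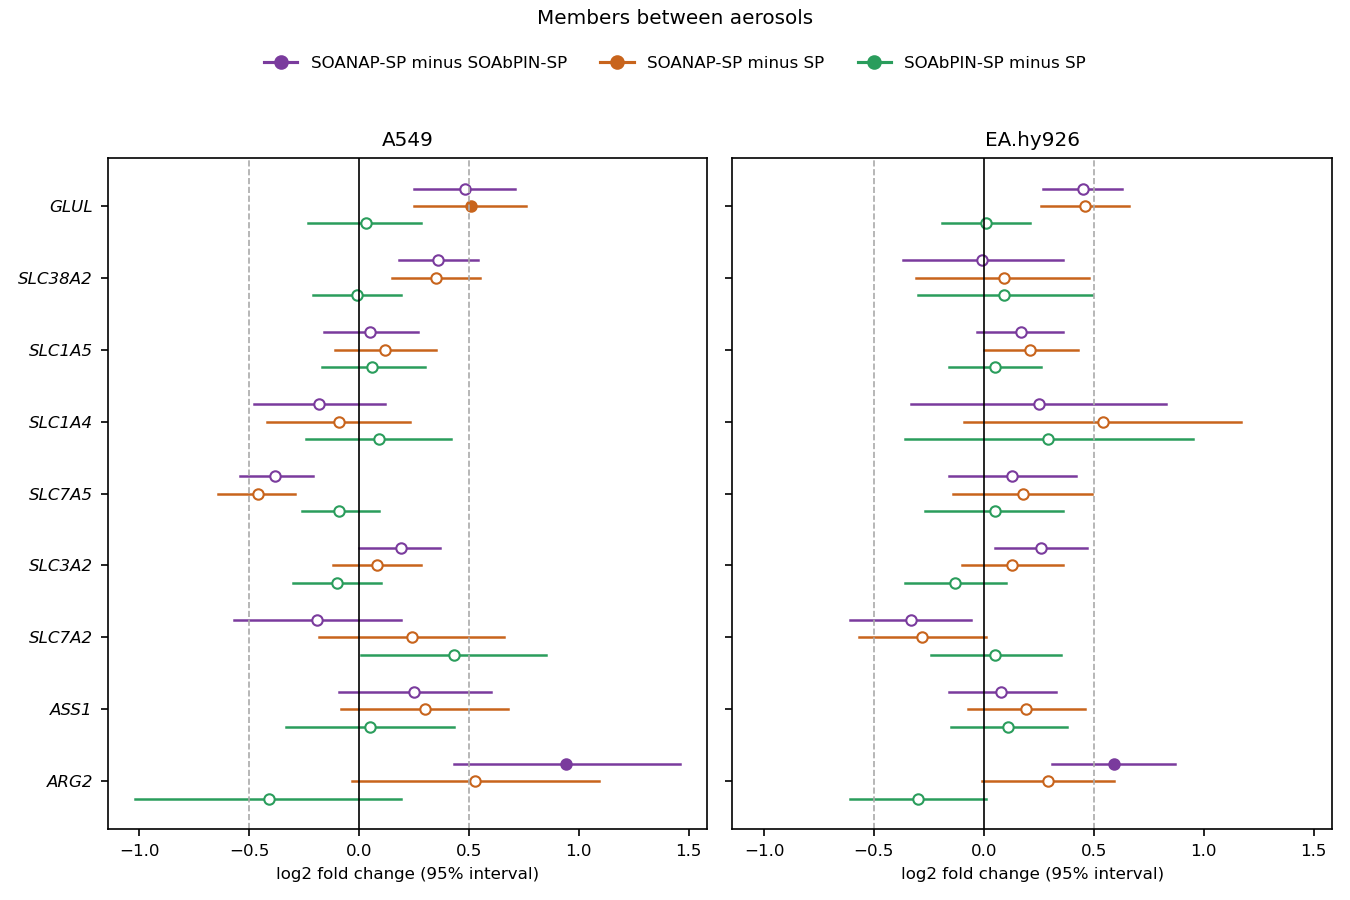
Log2 fold change of each gene between aerosols in A549 (left) and EA.hy926 cells (right), with 95% intervals; filled points are DEGs and dashed lines mark 0.5. ARG2 between SOANAP-SP and SOAβPIN-SP is filled in both lines at 0.94 and 0.59, and GLUL between SOANAP-SP and SP is filled in A549 cells at 0.51. The direction of the ARG2 value in A549 cells is partly fixed by the count filter.

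Levels of the 9 genes in CA differed between the lines in all 9 cases, in a fit to all 30 libraries in which 70.7% of the 12599 genes were DEGs, so that a difference here is the usual case. SLC1A4 was 29.2-fold lower in EA.hy926 than in A549 cells (log2 -4.87, SE 0.19, adjusted p = 1.11e-21), SLC7A5 7.18-fold (-2.84, SE 0.11, adjusted p = 2.77e-21) and SLC3A2 3.65-fold lower (-1.87, SE 0.10, adjusted p = 2.09e-18). SLC38A2 and SLC1A5 were each 2.10-fold lower (both -1.07, adjusted p = 4.09e-08 and 1.35e-11), and ASS1 was 1.55-fold lower (-0.63, SE 0.15, adjusted p = 0.000321). The difference in ASS1 was -0.46 without A549 CA replicate 2 (adjusted p = 0.00481) and with totals alone. The arginine genes SLC7A2 and ARG2 were higher in EA.hy926 cells, by 2.34-fold (1.23, SE 0.17, adjusted p = 1.56e-07) and 3.15-fold (1.66, SE 0.18, adjusted p = 4.35e-10). GLUL was lower by 1.42-fold (-0.50, SE 0.11, adjusted p = 7.97e-05), on the fold threshold, and the value was -0.49 with the coculture as a block, -0.48 in limma-voom, -0.44 with no filter on low counts, -0.33 with totals alone and -0.45, -0.39 and -0.45 without A549 CA replicate 2, A549 CA replicate 3 or EA.hy926 CA replicate 4.

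Whether the cell that faced the aerosol and the cell beneath it responded alike was tested as the response in EA.hy926 cells minus that in A549 cells. SLC7A2 responded less in EA.hy926 cells to SOAβPIN-SP (difference of log2 fold changes -0.76, SE 0.24, adjusted p = 0.0323) and to SOANAP-SP (-0.90, SE 0.24, adjusted p = 0.0112). SLC7A5 fell with SOANAP-SP in A549 cells and not in EA.hy926 cells, and that difference was 0.74 (SE 0.15, adjusted p = 0.000855). No other difference passed both thresholds. Thus 0, 1 and 2 of the 9 genes differed for SP, SOAβPIN-SP and SOANAP-SP, where 3.37%, 10.1% and 11.4% of all genes did. With SP, 1 of the 9, ARG2, had an unadjusted p under 0.05 in edgeR (0.71, adjusted p = 0.199), and limma-voom and DESeq2 called none.

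For SLC7A2 with SOAβPIN-SP the adjusted p lay between 0.0504 and 0.0915 when A549 CA replicate 1 or 4, A549 SOAβPIN-SP replicate 1 or 3, EA.hy926 SOAβPIN-SP replicate 1 or 4, or EA.hy926 CA replicate 3 was left out, with differences of -0.77 to -0.62. ARG2 with SOAβPIN-SP was just outside, at 0.80 (SE 0.28, adjusted p = 0.0506), and was called by DESeq2 (0.83, adjusted p = 0.029) and under relative log expression (RLE) scaling (0.82, adjusted p = 0.0431), and with adjusted p of 0.0276 to 0.0498 when any of 8 libraries was left out (A549 SP replicate 1 or 3, A549 CA replicate 3, A549 SOANAP-SP replicate 1 or 3, EA.hy926 CA replicate 1 or 3, or EA.hy926 SP replicate 1). SLC38A2 with SOANAP-SP gave -0.35 (95% interval -0.75 to 0.04, adjusted p = 0.224), which became -0.54 (adjusted p = 0.00473) without EA.hy926 CA replicate 4, and ASS1 gave -0.41 (adjusted p = 0.195), which became -0.58 (adjusted p = 0.0396) without A549 CA replicate 2. For GLUL the difference was 0.11, 0.08 and 0.06 for SP, SOAβPIN-SP and SOANAP-SP, and its 95% intervals ran from -0.24 at the lowest to 0.44 at the highest, all inside the fold threshold.

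**Figure D4:**
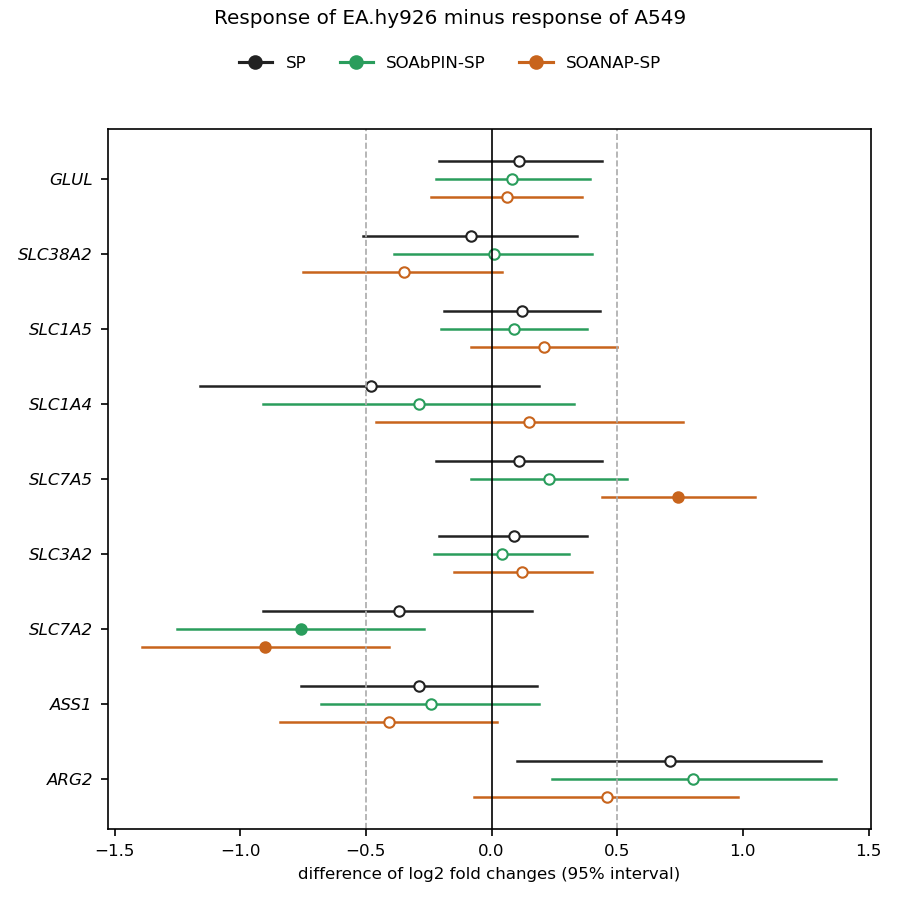
Response in EA.hy926 minus response in A549 cells for each gene and aerosol, as a difference of log2 fold changes with 95% intervals; filled points passed both thresholds and dashed lines mark 0.5. SLC7A2 is filled at -0.76 with SOAβPIN-SP and -0.90 with SOANAP-SP, SLC7A5 is filled at 0.74 with SOANAP-SP, and the 3 GLUL intervals include 0.

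The genes whose 6 log2 fold changes against CA were nearest to those of a gene of the set were ranked among the 9900 genes tested in both lines by root mean square difference. Nearest to GLUL were MFSD2A (0.211), SLC38A2 itself (0.225) and SIRT1 (0.265). Nearest to SLC38A2 were DDX3X (0.182), RASSF1 (0.197) and ZNF628 (0.202), and nearest to SLC1A4 were TRAPPC2 (0.114), ZNF252P (0.149) and DBP (0.159). ATG2A (0.157), CARD6 (0.160) and ASPM (0.178) were nearest to SLC7A2, and NXF1 (0.119), JMJD6 (0.131) and SNHG12 (0.183) to ARG2. The 6 values share 2 sets of CA libraries, and the ranking is a description.

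Around the 9 genes, 131 other genes of amino acid transport and metabolism were examined in 9 lists, with 97 of them above the count filter in A549 and 92 in EA.hy926 cells. In A549 cells 12 of 97 were DEGs with SP (9 higher and 3 lower), 20 with SOAβPIN-SP (11 and 9) and 27 with SOANAP-SP (12 and 15), where 5.99%, 13.2% and 18.2% of all genes were. In EA.hy926 cells 8 of 92 were DEGs with SP (6 higher and 2 lower), 9 with SOAβPIN-SP (7 and 2) and 12 with SOANAP-SP (8 and 4), counts below the share over all genes, 9.83%, 11.2% and 14.8%. The lists were chosen with earlier results of these data known, so these counts are a description and no test of the lists. The counts of single lists given next are small, and are to be read against the same 6 shares. Leaving out 1 library gave 7 to 13 DEGs with SP in A549 cells, the 7 without SP replicate 3, 17 to 23 with SOAβPIN-SP and 22 to 28 with SOANAP-SP, and 7 to 9, 8 to 11 and 11 to 15 in EA.hy926 cells.

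Among neutral and glutamate carriers, 1, 1 and 5 of 12 tested genes were DEGs in A549 cells with SP, SOAβPIN-SP and SOANAP-SP (4 higher and 1 lower with the last, beside 5.99%, 13.2% and 18.2% of all genes), and 1 of 9 with each aerosol in EA.hy926 cells. The taurine carrier SLC6A6 rose in both lines with all 3 aerosols, by 1.75, 2.13 and 1.66-fold in A549 and 1.87, 2.05 and 1.72-fold in EA.hy926 cells (adjusted p of 0.00597 or lower). With SOANAP-SP in A549 cells the glutamate carrier SLC1A1 rose 1.65-fold (adjusted p = 0.0253), the large neutral amino acid carrier SLC43A1 rose 1.64-fold (0.033) and the lysosomal carrier SLC36A1 fell (log2 -0.69, adjusted p = 0.000963). SLC1A1, at 2.09 to 4.04 CPM in CA and 4.47 to 5.43 CPM with SOANAP-SP, was close to the count limit. So was SLC43A1, at 2.0 to 4.2 CPM in CA and an overlapping 3.56 to 5.47 CPM with SOANAP-SP. The direction of these rises may be partly fixed by the count filter. Of the cationic and heteromeric carriers, 0, 1 and 2 of 4 fell in A549 cells. In EA.hy926 cells 0 of the 3 tested were DEGs with any aerosol in edgeR, limma-voom or DESeq2, and 1, 1 and 0 had an unadjusted p under 0.05. In A549 cells SLC7A1, the main arginine carrier of most cells, fell with SOANAP-SP (-0.78, adjusted p = 0.000599) while SLC7A2 rose. SLC7A6 also fell in A549 cells, with SOAβPIN-SP (-0.53, adjusted p = 0.00613) and SOANAP-SP (-0.66, adjusted p = 0.000858). The mitochondrial carrier of basic amino acids SLC25A29 rose 1.98, 2.46 and 2.14-fold in A549 cells (adjusted p = 0.00669, 0.000166 and 0.000499), and the glutamate carrier SLC25A22 rose 1.42-fold with SOANAP-SP (0.000179), while the other 4 tested mitochondrial carriers were no DEGs in edgeR in A549 cells. DESeq2 called 2 mitochondrial carriers with SOAβPIN-SP there, against 1 in edgeR. In EA.hy926 cells 0 of the 6 were DEGs in edgeR, limma-voom or DESeq2, and 2, 4 and 3 had an unadjusted p under 0.05 in edgeR.

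Of 15 tested enzymes that use glutamine or glutamate, besides GLUL, 2, 3 and 1 rose and 0, 0 and 1 fell in A549 cells, where 5.99%, 13.2% and 18.2% of all genes were DEGs, and 1, 2 and 2 rose in EA.hy926 cells, where 9.83%, 11.2% and 14.8% were. CAD, the first enzyme of pyrimidine synthesis, which takes nitrogen from glutamine, rose 1.65, 1.56 and 1.59-fold in A549 cells (adjusted p = 0.000499, 0.000114 and 5.16e-05). GMPS and GFPT1, which use glutamine for guanine nucleotides and hexosamines, rose 1.5 and 1.46-fold with SOAβPIN-SP (adjusted p = 3.21e-05 and 0.00011). In EA.hy926 cells GFPT2 rose 1.65, 1.69 and 1.80-fold (adjusted p of 0.000589 or lower) and CTPS1, which makes CTP with glutamine, rose 1.43 and 1.42-fold with SOAβPIN-SP and SOANAP-SP (adjusted p = 6.56e-06 and 2.96e-06).

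Of 8 tested genes of arginine, the urea cycle and nitric oxide, besides ASS1 and ARG2, 0, 1 and 1 rose and 1 fell with each aerosol in A549 cells, and 1 rose with SOANAP-SP in EA.hy926 cells, where SP and SOAβPIN-SP gave 0 in edgeR, limma-voom and DESeq2 and 1 each at an unadjusted p under 0.05. That gene was NOS3, endothelial nitric oxide synthase, at 1.53-fold (log2 0.61, SE 0.14, adjusted p = 0.00244), with log2 fold changes of 0.38 and 0.28 for SP and SOAβPIN-SP (adjusted p = 0.0788 and 0.149). In A549 cells DDAH1, which breaks down methylated arginines that inhibit nitric oxide synthase, fell with all 3 aerosols (-0.70, -0.74 and -0.67, adjusted p = 0.0236, 0.00324 and 0.00492). GATM, which makes the creatine precursor from arginine, rose 1.55-fold with SOAβPIN-SP and 1.76-fold with SOANAP-SP (adjusted p = 0.0337 and 0.00538). Its level was low, at 3.64 to 5.76 CPM in CA. It overlapped CA at 4.91 to 7.91 CPM with SOAβPIN-SP and at 4.77 to 9.39 CPM with SOANAP-SP. With SOAβPIN-SP limma-voom called 1 gene of this list in A549 cells, against 2 in edgeR.

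Polyamines are made from ornithine, the product of arginase. Of 10 tested polyamine genes, 1, 2 and 0 rose and 0, 1 and 1 fell in A549 cells (5.99%, 13.2% and 18.2% of all genes were DEGs), and 2 rose with each aerosol and 1 fell with SOANAP-SP in EA.hy926 cells (9.83%, 11.2% and 14.8%). SAT1, which acetylates polyamines for export and breakdown, rose 2.07, 2.47 and 2.71-fold in EA.hy926 cells (adjusted p = 0.0104, 0.00117 and 0.000284) and 1.43-fold with SOAβPIN-SP in A549 cells (0.00146). Spermine oxidase, SMOX, rose 1.45 and 1.62-fold with SOAβPIN-SP and SOANAP-SP in EA.hy926 cells (adjusted p = 4.44e-05 and 1.23e-06), and the polyamine transporter ATP13A3 rose 1.42-fold with SP (0.00646). AZIN1, an inhibitor of antizyme, fell with SOANAP-SP in both lines (-0.55 and -0.61, adjusted p = 0.000162 and 3.21e-05) and with SOAβPIN-SP in A549 cells (-0.61, adjusted p = 7.60e-05), and the antizyme OAZ2 rose 1.42 and 1.74-fold with SP and SOAβPIN-SP there (adjusted p = 0.0183 and 6.78e-05).

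Of 10 tested genes of serine, glycine, proline and asparagine synthesis, 1 rose with SP and 0 were DEGs with SOAβPIN-SP in A549 cells in edgeR, limma-voom or DESeq2 (5 at an unadjusted p under 0.05 in edgeR), and with SOANAP-SP 3 fell and 1 rose. The 3 enzymes of serine synthesis fell together with SOANAP-SP in A549 cells, PHGDH by 0.76 on the log2 scale (adjusted p = 2.21e-05), PSAT1 by 0.81 (adjusted p = 0.000105) and PSPH by 0.90 (adjusted p = 0.000119), while PYCR3 of proline synthesis rose 1.79-fold (6.96e-06). In EA.hy926 cells PSAT1 alone of the 10 was a DEG in edgeR, lower with all 3 aerosols (-0.71, -0.58 and -0.70, adjusted p = 0.0139, 0.0226 and 0.00538). With SP, limma-voom and DESeq2 each called 2 of the 10 there.

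Regulators of the amino acid response had the largest shift of the lists in A549 cells, with a median log2 fold change of -0.46, -0.60 and -0.50 beside 0.00 to 0.01 over all genes, and 2, 6 and 6 of 12 genes lower and 0 higher. CEBPB fell with each aerosol (-0.53, -0.76 and -0.52, adjusted p of 0.000617 or lower), DDIT4 fell with SOAβPIN-SP and SOANAP-SP (-0.65 and -0.97, adjusted p = 0.0459 and 0.00443), and CHAC1 fell with SOANAP-SP (-1.15, adjusted p = 0.00498). The CA libraries of DDIT4 ranged widely, from 93.3 to 232 CPM. They overlapped those with SOAβPIN-SP (82.3 to 98.7 CPM) and SOANAP-SP (63.9 to 93.6 CPM). CHAC1 was at 43.2 to 118 CPM in CA and 29.9 to 36.8 CPM with SOANAP-SP. ATF3 fell with SOAβPIN-SP (-1.49, adjusted p = 0.00258) and was at 0.34 with SOANAP-SP (adjusted p = 0.366). ATF4 was no DEG in A549 cells, where it was at 650 to 684 CPM in CA. Its libraries lay above CA with SP (724 to 785 CPM) and SOANAP-SP (826 to 928 CPM) and overlapped CA with SOAβPIN-SP (655 to 768 CPM). In EA.hy926 cells the median was -0.01, -0.03 and -0.03, with 2 of 11 higher with each aerosol and 1, 1 and 2 lower. There ATF3 rose 3.27, 3.87 and 5.61-fold (adjusted p of 1.55e-06 or lower) and ATF4, the factor that drives several of the carriers when amino acids are short, rose 1.57, 1.64 and 1.94-fold (adjusted p = 0.000463, 6.92e-05 and 1.58e-06), whereas TRIB3, an ATF4 target, fell with all 3 aerosols (-0.93, -1.0 and -1.14, adjusted p of 0.000834 or lower) and SESN2 fell with SOANAP-SP (-0.74, adjusted p = 3.58e-05). Of the 20 cytosolic aminoacyl-tRNA synthetases, 3 rose with each aerosol in A549 cells, more than the share of all genes with SP (5.99%), near it with SOAβPIN-SP (13.2%) and below it with SOANAP-SP (18.2%). Among them were QARS1, which charges glutamine (1.52, 1.61 and 1.60-fold, adjusted p = 0.00211, 8.16e-05 and 7.03e-05), VARS1 (1.47, 1.46 and 1.61-fold) and, with SP and SOAβPIN-SP, FARSB (1.54 and 1.60-fold), with its partner FARSA at 1.48-fold with SOANAP-SP. In EA.hy926 cells 0 of the 20 were DEGs in edgeR, limma-voom or DESeq2, and 8, 6 and 6 had an unadjusted p under 0.05 in edgeR.

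**Figure D5:**
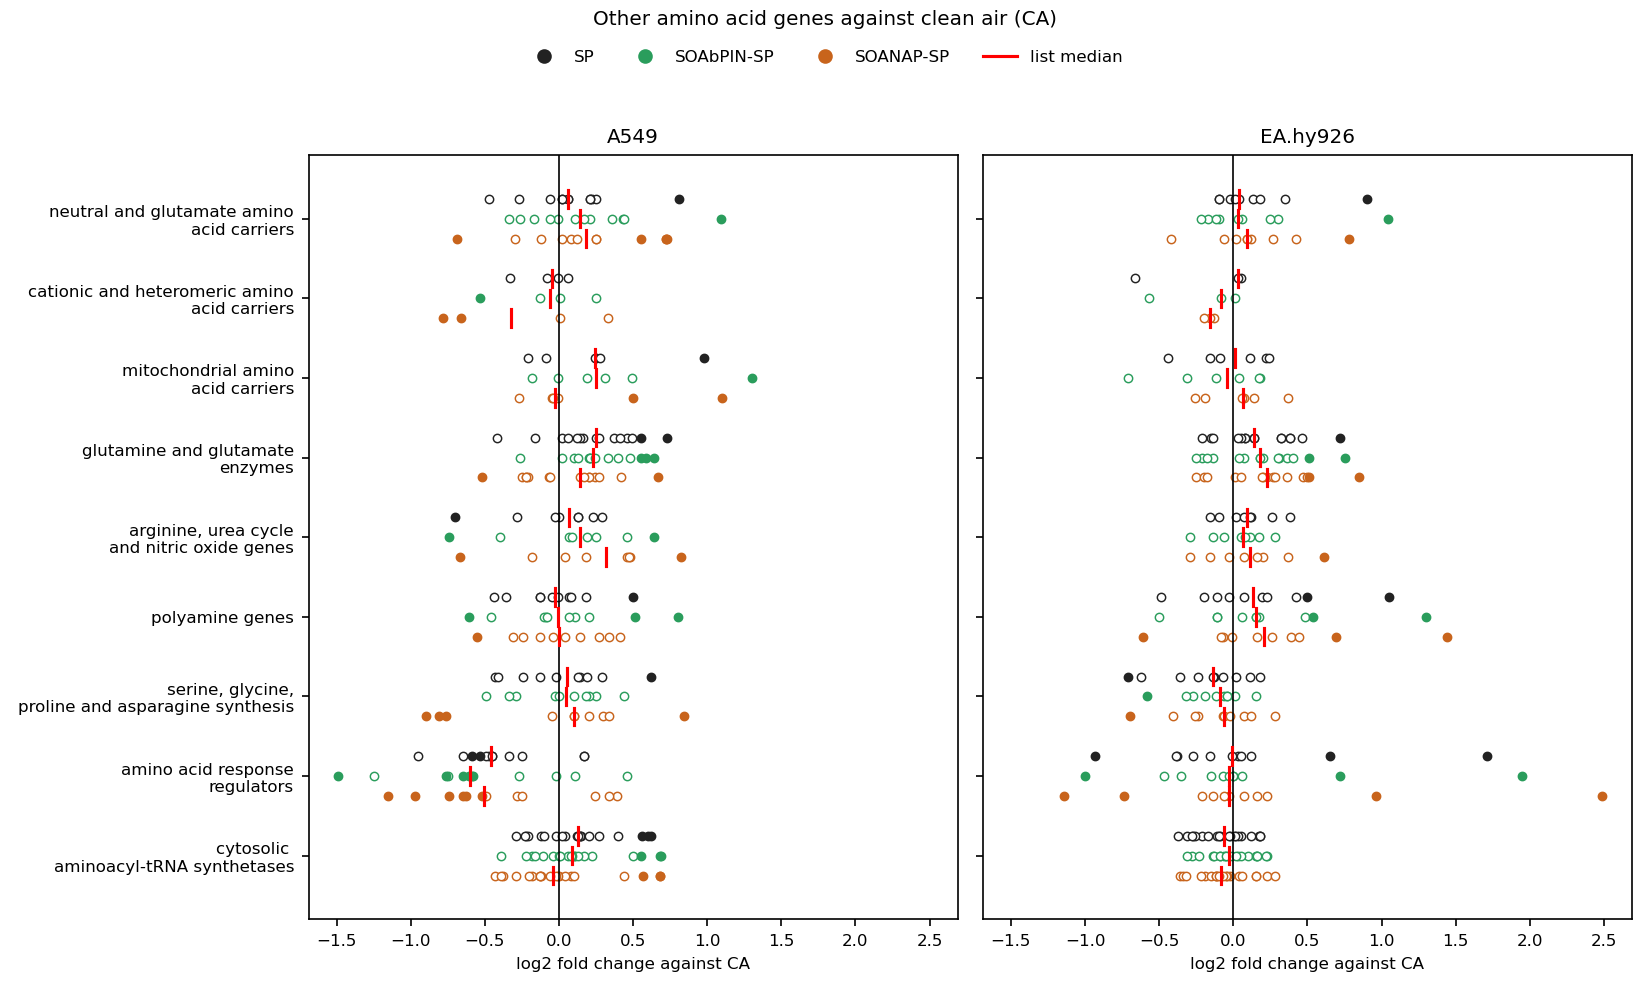
Log2 fold change against CA of the other amino acid genes by list in A549 (left) and EA.hy926 cells (right); each point is a gene, filled where it was a DEG, colours are aerosols and red bars are list medians. Amino acid response regulators lie to the left in A549 cells, with medians of -0.46, -0.60 and -0.50, and spread to both sides in EA.hy926 cells, where ATF3 reaches 2.49 with SOANAP-SP.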

How the data were processed

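RNA-Seq was carried out on 30 libraries, 15 of A549 and 15 of EA.hy926 cells. Per the labels and the study's methods, the authors demultiplexed reads with bcl2fastq (version 2.20.0.422), trimmed them with cutadapt, aligned them with STAR (version 2.7.3a), collapsed duplicates by unique molecular identifier and counted uniquely mapped reads per gene with HTSeq. The deposited counts are whole numbers with no normalization. The processing notes name the mouse build GRCm38 and the methods a human build. The gene identifiers in the files are human, and positions here come from GENCODE 44 on GRCh38. Whether strand was used is not given in the sources used here. A deposited normalized table holds a signal that the authors made by dividing counts by DESeq2 (version 1.26.0) size factors, and it was used as an alternative only, as log2 of the value plus 1.

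Tests were made within a line with edgeR 4.0.16 (quasi-likelihood F test, TMM scaling, all 4 groups in the fit) in R 4.3.3, with Benjamini-Hochberg adjustment over all genes tested. Differences between lines came from a fit to all 30 libraries. Standard errors were computed from the fold change and the F statistic. Alternatives were limma-voom (limma 3.58.1), DESeq2 1.42.0, RLE scaling, library totals alone, a minimum of 30 CPM, no filter on low counts, fits to the compared groups alone, blocks for replicate, run and coculture, and leaving out each library. The scripts were tested on simulated data. All 42 pairs of replicates within a group differed beyond sampling noise. Counts carry molecular identifiers, and depth limits ARG2 in A549 and SLC1A4 in EA.hy926 cells most.

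Same-numbered libraries of SP and SOAβPIN-SP in A549 cells had correlations of 0.26, 0.299 and 0.395. They share no run number, and whether the match of numbers has a meaning was not tested. No other groups of a line had correlations of that size between all their same-numbered libraries. Libraries of both lines from 1 coculture share an insert. The 9 genes and the gene lists were chosen with earlier results of these data known, and the lists leave out the 9 genes. From each list up to 4 genes per line were named, those that were DEGs against CA with the largest change. One gene that this rule selects is not reported here. Promoter sequences are from RefSeq on GRCh38.p14, and 17 listed genes had no row and were not analysed here.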

Additional observations from a re-analysis of the deposited data

Results flagged for a closer look

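SLC7A2 responded differently in the 2 lines to both secondary organic aerosols. The response in EA.hy926 cells minus that in A549 cells was -0.76 on the log2 scale with SOAβPIN-SP and -0.90 with SOANAP-SP, in the edgeR test of the difference itself (adjusted p = 0.0323 and 0.0112). SLC7A5 was flagged in the same test for SOANAP-SP, at 0.74 (adjusted p = 0.000855). The SLC7A2 difference with SOAβPIN-SP kept its call in 23 of 30 edgeR fits without 1 library, with adjusted p up to 0.0915. With SOANAP-SP the SLC7A2 difference kept it in all 30. Within the shared run of SOAβPIN-SP, SLC7A2 differed from CA by 0.245 in EA.hy926 and 0.429 in A549 cells. For SOANAP-SP these values were -0.396 and 0.506.

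Single libraries stood apart from their group in 2 of 54 groups of 4 libraries, where chance flags about 1 group in 20. SLC7A5 in A549 CA replicate 3 was the lowest of its group at 2254 CPM against 2397 to 2426 CPM, still above every exposed library. ARG2 in EA.hy926 SOAβPIN-SP replicate 1 was the highest of its group at 13.37 CPM against 11.1 to 11.3 CPM, below every SOANAP-SP library.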

How the results depend on the processing

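Among the 9 genes, no log2 fold change that was a DEG in the main fit or in an alternative had the other sign in its counterpart. Values near 0 that were no DEG did change sign, such as SLC3A2 with SOANAP-SP against CA in A549 cells (-0.1 to 0.02). The number of DEGs among the 9 genes changed by more than 1.5 times in a few cases. With a minimum of 30 CPM, which drops SLC7A2 and ARG2 in A549 and SLC1A4 and ARG2 in EA.hy926 cells from the test, A549 SOAβPIN-SP against CA gave 3 in place of 5, and SOANAP-SP against SOAβPIN-SP gave 0 in place of 1 in each line. With totals alone that comparison gave 2 in A549 cells, and with the run number as a random block SOANAP-SP against SP gave 0 there. The difference between lines with SOAβPIN-SP gave 2 in place of 1 with DESeq2 and with RLE scaling. With the replicate number as a block, EA.hy926 SOANAP-SP against SOAβPIN-SP gave 0 (ARG2 0.59, adjusted p = 0.0531) and SOANAP-SP against SP gave 1 (GLUL 0.50, adjusted p = 0.0118), where the libraries share only a number. The block made no call between SP and SOAβPIN-SP in A549 cells, where same-numbered libraries were correlated, and the coculture block moved only the CA level of GLUL (-0.49, adjusted p = 4.01e-05). The cause of these changes was not tested.

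Leaving out 1 library gave 2 to 4, 3 to 5 and 5 to 6 DEGs against CA in A549 cells for SP, SOAβPIN-SP and SOANAP-SP, and 2 to 3, 2 to 3 and 3 to 4 in EA.hy926 cells. Between SOANAP-SP and SOAβPIN-SP the range was 1 to 2 (A549) and 0 to 1 (EA.hy926), between SOANAP-SP and SP 0 to 1 in both, and between SOAβPIN-SP and SP 0 in both. Differences between lines ranged from 0 to 0, 0 to 2 and 2 to 3, and the CA level from 7 to 9. DEGs among the other amino acid genes numbered 7 to 13, 17 to 23 and 22 to 28 for A549 cells, and 7 to 9, 8 to 11 and 11 to 15 for EA.hy926 cells.

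Totals alone moved the median of all A549 genes to -0.12 for SOANAP-SP against SOAβPIN-SP and -0.15 against SP. The share of higher genes among all DEGs was then 45.1% in place of 33.8% for SP against CA, 23.1% in place of 37.9% for SOANAP-SP against CA, 18% in place of 46.1% for SOANAP-SP against SOAβPIN-SP and 14.3% in place of 39.8% for SOANAP-SP against SP.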
